A study of Mus musculus with 2 samples.

Results

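The 9 genes described here are *Atf3*, 7 further stress and immediate early transcription factor genes (*Atf4*, *Ddit3*, *Jun*, *Junb*, *Fos*, *Egr1* and *Myc*) and *Ankrd1*, and they were found by symbol among the 27998 genes of the count matrices. The question was whether *Atf3* was higher alone or together with the others after loss of Net39, a muscle protein of the nuclear envelope that is encoded by *Plpp7*. Nuclei of the gastrocnemius-plantaris (GP) muscle group of the calf were profiled by single-nucleus RNA sequencing in 2 libraries. The Ctrl library came from *Net39* fl/fl mice without Cre. The cKO library came from HSACreERT2;*Net39* fl/fl mice, in which the human skeletal actin promoter drives a tamoxifen-dependent Cre in muscle fibres, so that nuclei outside the fibres keep the gene. Both groups were B6C3F1 mice, 5 months old, 3 months after tamoxifen, and the protocol says that 3 muscles were pooled per library, while the sample titles name a single mouse, so the number of animals behind each library is not settled. With 1 library per group there were no replicates and no test was possible, and every interval below is a 95% interval for counting error alone, with no part for differences between mice. UMIs (unique molecular identifiers, 1 per captured RNA) of a gene can crowd into 1 nucleus, which makes the real error larger than these intervals.

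Immediate early genes are transcribed within minutes of a stimulus from promoters that are already open, and many encode leucine zipper factors that bind DNA in pairs: Fos and Jun proteins form AP-1, and ATF proteins pair with each other, with Jun or with C/EBP factors. *Atf4* and *Ddit3* (CHOP) stand for the integrated stress response, in which ATF4 is regulated mainly through translation and induces *Ddit3*, *Atf3* and genes of amino acid supply. In muscle, *Ankrd1* (CARP) encodes a titin-binding ankyrin repeat protein known for its response to stretch, injury and denervation.

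The promoters of *Atf3*, *Fos* and *Ankrd1*, the members that were higher in cKO myonuclei, and of *Jun*, which was not, are shown because the members are compared as targets of common stress signals. Each run is the 250 bases before the RefSeq transcription start in GRCm38.p6, written 5′ to 3′ on the strand of the gene: chr1:191183334-191183583 (minus strand) for *Atf3*, chr12:85473640-85473889 (plus) for *Fos*, chr19:36119845-36120094 (minus) for *Ankrd1* and chr4:95052223-95052472 (minus) for *Jun*. The windows of *Atf3* and *Ankrd1* lie inside the longer GENCODE gene spans given below. The sequence before the GENCODE starts of these genes was not searched. Capitals mark letters that match a motif searched on both strands.
Atf3: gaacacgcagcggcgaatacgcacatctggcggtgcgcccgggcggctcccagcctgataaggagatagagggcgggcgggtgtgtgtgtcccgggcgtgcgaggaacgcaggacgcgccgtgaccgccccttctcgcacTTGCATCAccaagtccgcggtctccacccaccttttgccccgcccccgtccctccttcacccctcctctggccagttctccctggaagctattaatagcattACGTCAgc
Fos: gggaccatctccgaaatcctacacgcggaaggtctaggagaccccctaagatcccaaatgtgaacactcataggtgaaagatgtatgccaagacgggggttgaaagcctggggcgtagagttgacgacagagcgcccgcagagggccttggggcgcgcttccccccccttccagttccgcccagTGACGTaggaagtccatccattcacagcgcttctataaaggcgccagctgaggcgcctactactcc
Ankrd1: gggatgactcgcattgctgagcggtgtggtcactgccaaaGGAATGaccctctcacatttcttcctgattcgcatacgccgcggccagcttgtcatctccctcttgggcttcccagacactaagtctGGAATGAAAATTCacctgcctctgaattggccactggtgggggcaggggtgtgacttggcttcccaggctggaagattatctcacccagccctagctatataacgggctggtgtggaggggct
Jun: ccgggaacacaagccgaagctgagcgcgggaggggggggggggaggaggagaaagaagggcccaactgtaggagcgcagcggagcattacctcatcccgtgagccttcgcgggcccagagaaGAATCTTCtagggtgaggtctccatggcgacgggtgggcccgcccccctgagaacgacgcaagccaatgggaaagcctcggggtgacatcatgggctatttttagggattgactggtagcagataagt

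*Atf3* held the C/EBP-ATF composite element TGATGNAA, which ATF4 is known to bind, as its reverse complement starting 110 bases before the start of transcription, and this motif was in 3.45% of 32851 promoter windows of the same length. It also held ACGTCA, the core of the cAMP response element, 8 bases before the start, and *Fos* held the same core on the opposite strand 66 bases before it (6.47% of all windows). The full element TGACGTCA was in 0 of the 7 member promoters searched (all but *Egr1* and *Myc*) (1.55% of all windows). The AP-1 site TGANTCA matched only in *Ddit3*, 242 bases before its start (6.75% of all windows). *Ankrd1* held GGAATG, the MCAT motif of TEAD factors, 210 and 123 bases before its start (12.6% of all windows), and GAANNTTC, a heat shock factor motif (6.69% of all windows), 118 bases before it, where it shares 1 base with the nearer MCAT motif. *Jun* held GAANNTTC 128 bases before its start. These matches describe letters in the window and do not show binding.

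The Ctrl library held 10410316 UMIs in 3863 barcodes and the cKO library 8446070 UMIs in 3994 barcodes, with medians of 2040.5 and 1611 UMIs in the 3526 and 3595 nuclei that were used. Myonuclei, the nuclei inside muscle fibres, numbered 2920 in Ctrl and 3244 in cKO, and nuclei outside the fibres 606 and 351. Levels are CPM, the UMIs of a gene as a share of all UMIs of the same nuclei, scaled to 1e6. Over the 11386 genes with at least 20 UMIs in myonuclei, the log2 ratio of CPM (cKO over Ctrl) had a median of -0.08. *Plpp7*, the targeted gene, had 52.2 CPM in Ctrl against 42.2 CPM in cKO myonuclei, and reads near the 3′ end of its RNA do not check a deletion of the first exon. The drop was less than 2-fold. The paper reports reduced *Net39* mRNA in cKO by RNA sequencing of whole GP muscle. The libraries shared 5 barcodes. Overlapping annotations make some counts less certain: *Atf3*, *Ddit3*, *Jun* and *Junb* overlap a gene on the opposite strand, and *Ddit3* also overlaps a second entry of its own name.

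*Atf3*, *Fos* and *Ankrd1* were at least 2-fold higher in cKO myonuclei, while *Atf4*, *Jun*, *Junb* and *Egr1* were not and *Ddit3* was higher by less than 2-fold. Of the 8 members with at least 20 UMIs, 3 were higher by 2-fold or more and 0 were lower by 2-fold or more. The same was true of 4.12% (higher) and 4.86% (lower) of the 11386 genes. *Myc*, with 8 UMIs in Ctrl and 6 in cKO, was too sparse for that count.

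*Atf3* (chr1:191170296-191218039, minus strand, GRCm38, protein coding), a factor induced by many kinds of cell stress, had 18.5 CPM in Ctrl (interval 15.6 to 21.9, 142 UMIs) against 80.7 CPM in cKO myonuclei (74.1 to 87.9, 538 UMIs). The ratio was 4.35 (3.61 to 5.28), which ranked *Atf3* 111th from the highest log2 ratio among the 11386 genes. *Fos* (chr12:85473890-85477273, plus strand), the AP-1 partner of Jun, had 8.62 CPM in Ctrl (66 UMIs) against 35.7 CPM in cKO (238 UMIs), a ratio of 4.14 (3.14 to 5.53). *Ankrd1* (chr19:36111961-36120099, minus strand) had 10.7 CPM in Ctrl (82 UMIs) against 32.6 CPM in cKO (217 UMIs), a ratio of 3.04 (2.35 to 3.97). For each of these genes, and for *Ddit3*, the intervals of the 2 libraries did not overlap. The share of all genes for which this holds was not counted.

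The members of the integrated stress response showed less. *Ddit3* (chr10:127290774-127296288, plus strand) had 27.9 CPM in Ctrl against 39.5 CPM in cKO, giving a log2 ratio of 0.50 (0.23 to 0.77). *Atf4* (chr15:80255184-80257541, plus strand) had 15.3 CPM in Ctrl against 15.2 CPM in cKO, giving a log2 ratio of -0.01 (-0.41 to 0.38). These are RNA levels, and control of *Atf4* at translation would not be seen in them.

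Among the remaining AP-1 and growth factor response genes, only *Jun* had enough UMIs for a narrow interval in myonuclei. *Jun* (chr4:95049034-95052222, minus strand) had 76.3 CPM in Ctrl against 78.6 CPM in cKO, giving a log2 ratio of 0.04 (-0.13 to 0.22), and with 584 and 524 UMIs it was the member for which a difference was bounded most tightly. *Junb* (chr8:84974484-84978718, minus strand) had 21 and 20 UMIs and a log2 ratio of 0.13 (-0.83 to 1.09). *Egr1*, a zinc finger immediate early factor, had 23 and 17 UMIs and a log2 ratio of -0.24 (-1.23 to 0.73). *Myc* (chr15:61985391-61990374, plus strand) had a log2 ratio of -0.21 (-2.02 to 1.50). For *Junb*, *Egr1* and *Myc*, each interval held both 0 and a 2-fold difference in at least 1 direction, and these counts could not show whether they differed.

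**Figure D1:**
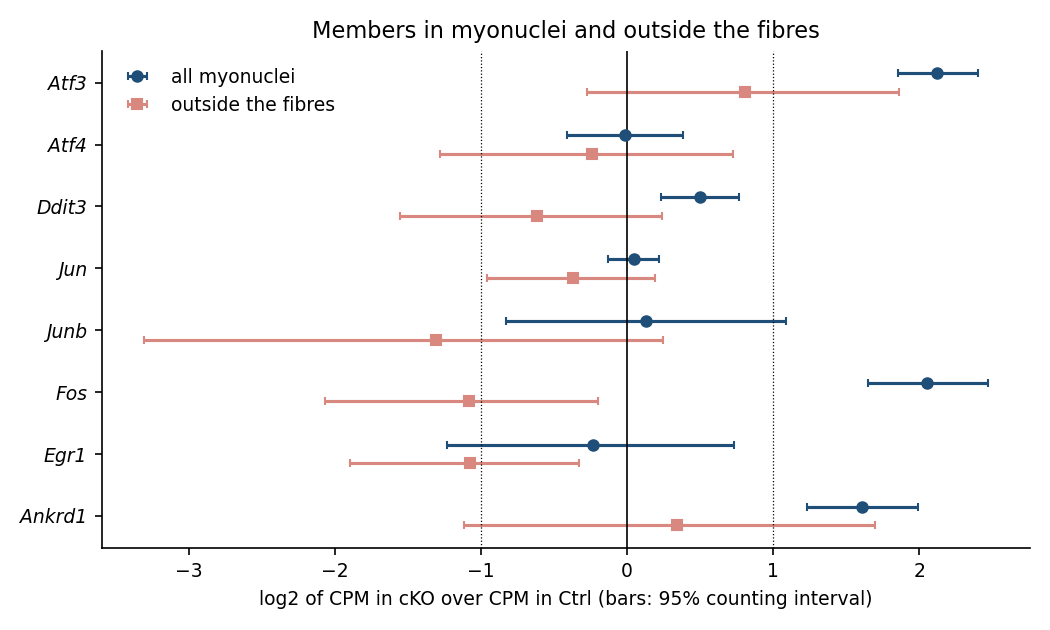
Log2 ratio of CPM in cKO over CPM in Ctrl (x axis) for the 8 members with enough UMIs (y axis), in all myonuclei (circles) and in nuclei outside the fibres (squares), with 95% counting intervals and dotted lines at 2-fold. *Atf3*, *Fos* and *Ankrd1* lie at 2.12, 2.05 and 1.60 in myonuclei, while *Fos* and *Egr1* lie at -1.08 and -1.07 outside the fibres.

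*Atf3* and *Fos* were also detected in a larger share of cKO myonuclei. After each nucleus was thinned at random to 500 UMIs, *Atf3* was detected in 0.514% of Ctrl myonuclei (15 of 2920, exact binomial interval 0.288 to 0.846) and 2.68% of cKO myonuclei (87 of 3244, 2.15 to 3.30). *Fos* was detected in 0.308% (0.141 to 0.584) and 1.79% (1.36 to 2.31). *Ddit3* was detected in 1.23% and 2.03% and *Ankrd1* in 0.514% and 0.832%, with intervals that overlapped between libraries for both genes. *Jun* was detected in 3.70% of Ctrl and 2.93% of cKO myonuclei, also with overlapping intervals. Without thinning, the shares were 1.75% and 6.75% for *Atf3*, 2.02% and 5.67% for *Fos*, 1.20% and 2.28% for *Ankrd1*, 5.96% and 6.41% for *Ddit3* and 16.0% and 11.7% for *Jun*. The unthinned shares favour the deeper Ctrl library. In nuclei outside the fibres, the thinned share was 0.495% in Ctrl and 0.570% in cKO for *Atf3*, so the Ctrl share in myonuclei was at that level, and only the cKO share stood above it. Median depths there were 1399.5 and 1194 UMIs, against 2140 and 1648.5 in myonuclei.

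*Atf3* UMIs were concentrated in few nuclei. In Ctrl, 51 myonuclei held all 142 UMIs, 34 of them with 1 UMI and 10 with 3 or more, and the 10 richest nuclei held 66.2% of the UMIs. In cKO, 219 myonuclei held *Atf3*, 124 with 1 UMI and 53 with 3 or more, and the 10 richest held 26.2%. The highest counts in 1 nucleus were 19 in Ctrl and 26 in cKO. Thus more cKO nuclei held *Atf3* at every level of UMIs, and a small group of Ctrl nuclei was also rich in it. When the 10 richest nuclei of each library were left out, the log2 ratio of *Atf3* was 3.26 in place of 2.12. This step takes a larger share of the UMIs from Ctrl (66.2%) than from cKO (26.2%), which raises the ratio.

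*Ankrd1* was the most uneven of the higher genes in cKO. It was held by 35 Ctrl and 74 cKO myonuclei, the 10 richest nuclei held 52.4% and 49.3% of its UMIs, and 1 cKO nucleus held 34 UMIs. *Fos* was spread more evenly, with 146 of 184 positive cKO nuclei at 1 UMI, 10 at 3 or more, and 15.1% of UMIs in the 10 richest. *Jun* was the most even of these 4 genes, with 6.68% in Ctrl and 9.54% in cKO.

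**Figure D2:**
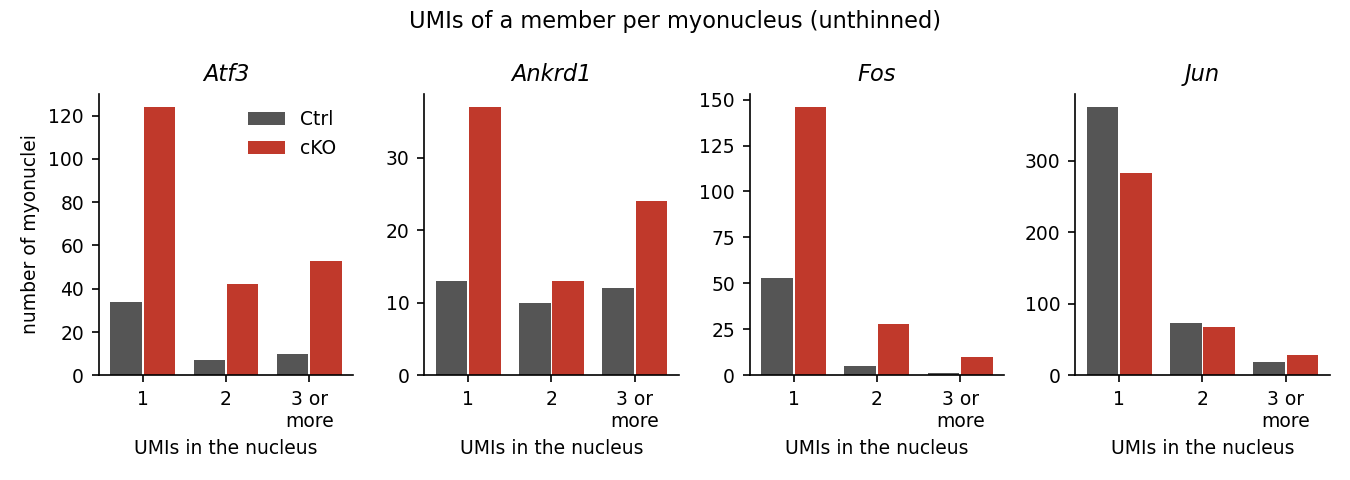
Number of myonuclei (y axis, scale differs by panel) with 1, 2 or 3 or more UMIs (x axis) of *Atf3*, *Ankrd1*, *Fos* and *Jun*, unthinned, in Ctrl (grey) and cKO (red). The cKO bar is the taller one at each number of UMIs for *Atf3*, *Ankrd1* and *Fos*, while for *Jun* the Ctrl bar is taller at 1 UMI (375 against 282).

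Fibre type was read from the main myosin of each myonucleus, the heavy chain gene (*Myh7* in slow type I, *Myh2* in type IIa, *Myh1* in type IIx, *Myh4* in type IIb fibres) with at least 60% of at least 3 myosin UMIs. The classes differed in size between libraries: *Myh7* nuclei numbered 19 in Ctrl and 275 in cKO, *Myh2* 165 and 322, *Myh1* 301 and 380, *Myh4* 1869 and 1399, mixed 128 and 206, and undetermined 438 and 662. *Atf3* was higher in cKO in the 5 classes other than *Myh7*, in which Ctrl had too few nuclei to give a direction.

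In *Myh4* nuclei, *Atf3* had 9.54 CPM in Ctrl against 36.4 CPM in cKO, a ratio of 3.81 (2.70 to 5.45). In *Myh1* nuclei it was at 36.6 and 105 CPM, a ratio of 2.88 (1.88 to 4.53), and in *Myh2* nuclei at 56.8 and 121 CPM, a ratio of 2.13 (1.33 to 3.54). Mixed nuclei had 7.05 and 127 CPM, from 3 and 78 UMIs, a ratio of 18.1 (5.95 to 89.4), and undetermined nuclei 49.2 and 103 CPM, a ratio of 2.09 (1.42 to 3.13). In *Myh7* nuclei, *Atf3* had 78 UMIs (128 CPM) in cKO and 0 UMIs in the 19 Ctrl nuclei. No fold is given for them: *Atf3* was detected in 25 of 275 cKO nuclei (9.09%, unthinned), and 0 of 19 Ctrl nuclei allows a share of up to 17.6% by the exact binomial interval, so these nuclei give no direction.

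Within cKO the order of *Atf3* levels from the top was *Myh7*, mixed, *Myh2*, *Myh1* and undetermined nuclei, at 128 to 103 CPM with overlapping intervals, and then *Myh4* nuclei at 36.4 CPM (29.8 to 44.0), below all of them. In Ctrl, *Myh2* (56.8), undetermined (49.2) and *Myh1* nuclei (36.6) overlapped, and *Myh4* nuclei at 9.54 CPM (7.08 to 12.6) lay below these 3, near mixed nuclei (7.05, from 3 UMIs). The lower level in *Myh4* nuclei was thus present in both libraries. *Atf3* passed 2-fold in *Myh2*, *Myh1*, *Myh4*, mixed and undetermined nuclei, where 4.44%, 4.02%, 3.02%, 4.89% and 6.79% of genes with at least 20 UMIs were higher by 2-fold or more, and so did *Fos* and *Ankrd1*, but no other member with at least 20 UMIs. For *Atf3* this depended on the myosin call: with 80% of myosin UMIs asked for, its log2 ratio was 0.31 in *Myh2* and 0.82 in *Myh1* nuclei. When the levels in the classes other than *Myh7* were weighted by the Ctrl class sizes in both libraries, a setting chosen after seeing the data, the log2 ratio of *Atf3* was 1.68 in place of 2.12, still past 2-fold.

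*Fos* had its largest ratio in *Myh1* nuclei, at 10.1 CPM in Ctrl against 70.1 CPM in cKO, a ratio of 6.95 (3.32 to 16.8). It was at 8.59 and 29.4 CPM in *Myh4* nuclei, a ratio of 3.43 (2.36 to 5.04). In *Myh2*, mixed and undetermined nuclei the ratios were 3.58, 5.03 and 4.85, from 3, 4 and 5 Ctrl UMIs. In *Myh7* nuclei it had 1 UMI in Ctrl and 12 in cKO, a log2 ratio of -0.33 (-3.09 to 5.09), which gives no direction. The intervals of the *Fos* ratio overlapped among the classes, so no class was separated from the others, and in mixed nuclei the log2 ratio was 0.80 when myosin was called after thinning.

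*Ankrd1* had log2 ratios of 1.03 to 1.63 in the 5 classes other than *Myh7*, from 6.49 and 20.1 CPM in *Myh4* nuclei to 26.6 and 54.5 CPM in undetermined nuclei. Its counts were small (5 to 34 UMIs in Ctrl). Its direction turned in *Myh1* nuclei when myosin was called after thinning (log2 ratio -2.16) and in *Myh4* nuclei when 80% of myosin UMIs were asked for (-0.13). In *Myh7* nuclei *Ankrd1* had 0 UMIs in Ctrl and 9 in cKO, for which no fold is given. *Jun*, in contrast, had log2 ratios between -0.40 and 0.48 over the 6 classes, each with an interval that spans 0.

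*Ddit3* lay between 0.11 and 0.45 on the log2 scale in the classes other than *Myh7*, and only the interval in *Myh4* nuclei (0.02 to 0.88) stayed above 0. *Ddit3* was highest in *Myh2* nuclei, at 79.0 CPM in Ctrl against 85.5 CPM in cKO, against 20.8 and 28.4 CPM in *Myh4* nuclei. *Atf4* had log2 ratios from -0.22 in *Myh4* to 0.92 in undetermined nuclei, with intervals that span 0 in each class with UMIs in both libraries.

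**Figure D3:**
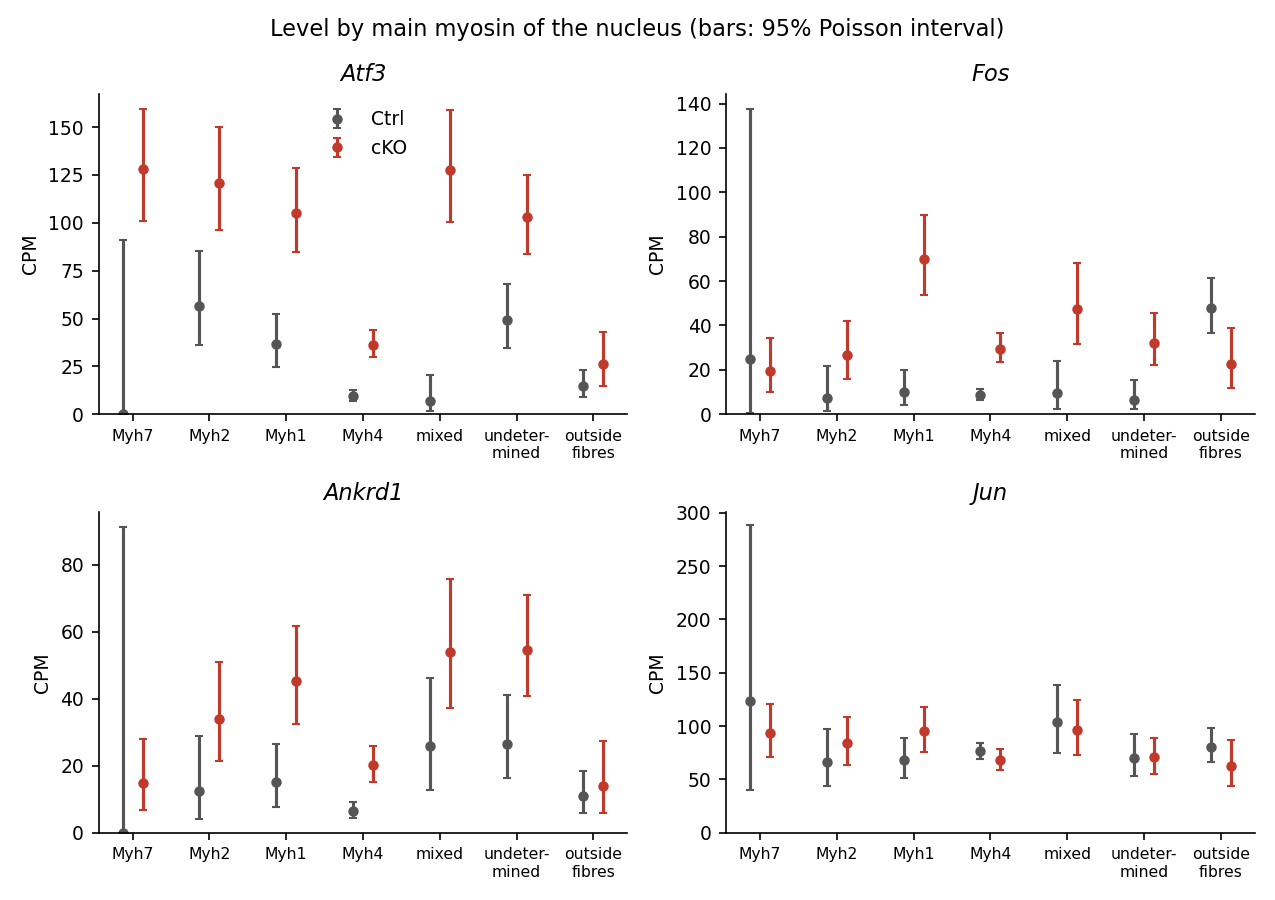
CPM (y axis, scale differs by panel) of *Atf3*, *Fos*, *Ankrd1* and *Jun* by main myosin of the myonucleus and in nuclei outside the fibres (x axis), in Ctrl (grey) and cKO (red), with 95% Poisson intervals. *Atf3* is higher in cKO in the 5 myosin classes other than *Myh7* (19 Ctrl nuclei, 0 UMIs) and lowest in cKO among *Myh4* nuclei (36.4 CPM) within the fibres, *Fos* is lower in cKO outside the fibres, and *Jun* overlaps between the libraries in every class.

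Clusters were built without the 9 genes. In cKO, 54.1% of all *Atf3* UMIs lay in cluster 1, which is led by *Ankrd2*, *Myh2* and *Csrp3* and was left unnamed, and 35.4% in cluster 2, which is type I-like. In Ctrl, the same clusters held 76.4% and 4.35%. These shares depended on the clustering. With the members kept among the clustering features, the type I-like cluster held 87 *Atf3* UMIs in Ctrl and 320 in cKO. All myonuclei of the main clustering held 142 and 538. In cluster 1 (880 Ctrl and 986 cKO nuclei), *Atf3* was at 54.7 and 154 CPM, a log2 ratio of 1.49 (1.19 to 1.81), with *Fos* at 7.56 and 52.5 CPM, *Ankrd1* at 8.01 and 55.6 CPM, and *Ddit3* at 38.3 and 76.2 CPM, a log2 ratio of 0.99 (0.60 to 1.40). These 4 of the 9 members were higher in cKO here, *Ddit3* by just under 2-fold. The share of all genes higher in this cluster was not set beside them. *Jun* there was at 73.8 and 75.7 CPM.

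In the type I-like cluster (128 Ctrl and 857 cKO nuclei), *Atf3* was at 20.6 CPM in Ctrl, from 7 UMIs, and 99.1 CPM in cKO, giving a log2 ratio of 2.27 (1.20 to 3.60). This value depended on the clustering. When the members were kept among the clustering features, the cluster held 159 Ctrl nuclei, *Atf3* had 204 CPM in Ctrl against 152 CPM in cKO, and the log2 ratio was -0.43. *Ankrd1* in this cluster was at 53.0 and 37.4 CPM, a log2 ratio of -0.50 (-1.26 to 0.33) that turned to 0.06 when the members were kept among the features, and *Ddit3* at 53.0 and 25.3 CPM, a log2 ratio of -1.07 (-1.87 to -0.20). For *Ddit3* it was -0.83 with the members kept and -0.63 with the highest doublet scores kept, both less than 2-fold. The result for all myonuclei did not rest on this cluster: without it, the log2 ratios were 1.98 for *Atf3*, 2.15 for *Fos* and 1.80 for *Ankrd1*.

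In cluster 0, the unnamed cluster with the highest *Myh4* level (1765 Ctrl and 1272 cKO nuclei), *Atf3* was at 1.95 and 9.38 CPM, the lowest of the fibre clusters with over 80 nuclei in each library. *Fos* there was at 8.46 and 27.7 CPM, a log2 ratio of 1.71 (1.13 to 2.32). So *Fos* was higher in cKO also in the nuclei with little *Atf3*. The myotendinous-like cluster (108 and 91 nuclei), which holds nuclei at the fibre ends, had the highest *Ankrd1* level of these clusters, and there it was at 119 and 109 CPM, a log2 ratio of -0.13 (-0.93 to 0.64). At this site of force transfer the interval of *Ankrd1* did not reach 2-fold in either direction.

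*Ankrd1* was at a higher level in myonuclei with *Atf3* than in those without, though most nuclei with *Atf3* held none. It was in 23 of 219 cKO and 10 of 51 Ctrl nuclei with *Atf3*. A further 51 cKO and 25 Ctrl nuclei held *Ankrd1* without *Atf3*. In cKO, the 219 myonuclei with an *Atf3* UMI held 132 of the 217 *Ankrd1* UMIs (in 23 nuclei), 194 CPM (163 to 230) against 14.2 CPM (11.3 to 17.6) in the 3025 myonuclei without, a ratio of 13.7 (10.3 to 18.2). In Ctrl, the 51 nuclei with *Atf3* were at 137 CPM and the others at 7.88 CPM, a ratio of 17.4 (10.3 to 28.7). With nuclei thinned to 500 UMIs, *Ankrd1* was detected in 8 of 87 cKO nuclei with *Atf3* (9.20%, 4.05 to 17.3) and in 19 of 3157 without (0.602%, 0.363 to 0.938). In Ctrl, it was detected in 3 of 15 with *Atf3* and in 12 of 2905 without. The excess of *Ankrd1* in nuclei with *Atf3* was therefore seen in both libraries, in unthinned and in thinned nuclei.

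*Fos* was tied to *Atf3* less closely. In cKO, it was at 76.6 CPM in nuclei with *Atf3* and 31.1 CPM in nuclei without, a ratio of 2.46 (1.77 to 3.37), and in Ctrl at 23.9 CPM (4 UMIs) and 8.28 CPM. After thinning, 0 of 87 cKO nuclei with *Atf3* held *Fos*, which allows a share of up to 4.15% by the exact binomial interval, against 1.84% of the nuclei without, so the thinned counts do not show the excess. In nuclei with no *Atf3* UMI, *Fos* was at 8.28 CPM (6.35 to 10.6) in Ctrl and 31.1 CPM (26.8 to 35.9) in cKO. The *Fos* difference was thus present in nuclei in which no *Atf3* was detected. *Jun* was 1.88 times (1.48 to 2.35) as high in unthinned cKO nuclei with *Atf3* as in those without, and *Ddit3* 1.49 times (1.03 to 2.11). In Ctrl these ratios were 1.50 (0.90 to 2.37) and 0.42 (0.05 to 1.54), both with intervals that hold 1. After thinning, the excess was not shown in cKO either: *Jun* was in 3.45% of nuclei with *Atf3* and 2.91% without, and *Ddit3* in 1.15% and 2.06%. Nuclei with an *Atf3* UMI had a higher median depth, 2274 against 1617 UMIs in cKO and 2917 against 2134 in Ctrl.

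**Figure D4:**
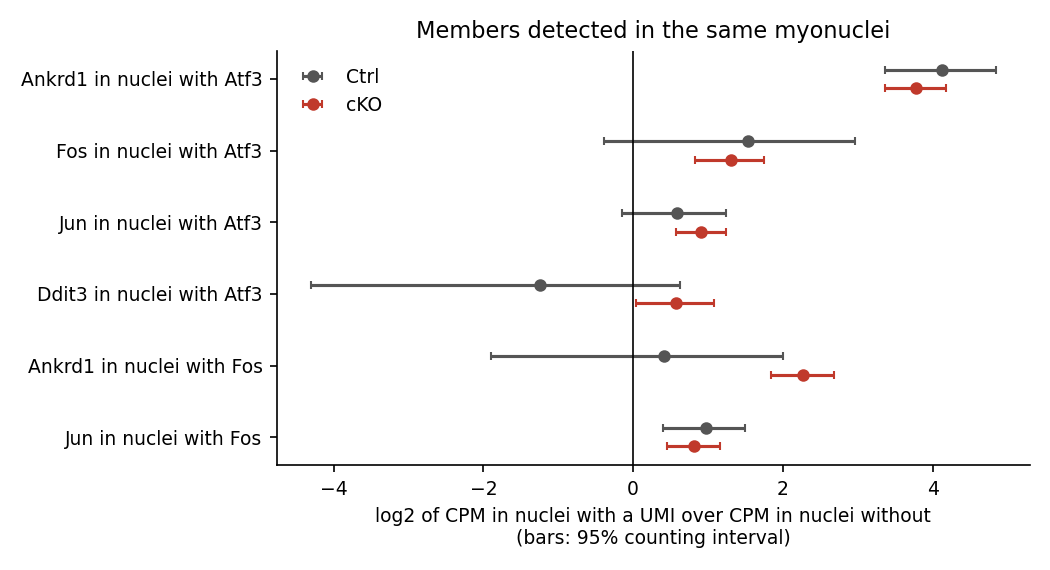
Log2 ratio of a member's CPM in myonuclei with a UMI of *Atf3* or *Fos* over its CPM in myonuclei without (x axis), for 6 pairs of members (y axis), in Ctrl (grey) and cKO (red), unthinned, with 95% counting intervals. *Ankrd1* in nuclei with *Atf3* lies farthest from 0 in both libraries, at ratios of 17.4 in Ctrl and 13.7 in cKO.

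Outside the fibres *Fos* was lower in cKO, opposite to myonuclei, and *Egr1* was lower as well. *Fos* had 47.9 CPM in Ctrl (61 UMIs) against 22.6 CPM in cKO (13 UMIs), a log2 ratio of -1.08 (-2.07 to -0.20). *Egr1* (chr18:34859823-34864984, plus strand) had 66.0 CPM in Ctrl (84 UMIs) against 31.3 CPM in cKO (18 UMIs), a log2 ratio of -1.07 (-1.90 to -0.33). *Junb* had 22 and 4 UMIs, a log2 ratio of -1.31 (-3.31 to 0.25). Of the 8 members with at least 20 UMIs, these 3 were lower by 2-fold or more and 0 were higher by 2-fold or more, beside 6.91% of all genes lower and 2.62% higher. For *Junb* the interval spans 0, and the log2 ratio was 0.06 in nuclei with at most 1% mitochondrial UMIs. *Fos* and *Egr1* were lower under each alternative tried, but by less than 2-fold in some: *Fos* had -0.33 in those same nuclei, and *Egr1* had -0.35 as a mean of the CPM of single nuclei.

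*Atf3* outside the fibres had 14.9 CPM in Ctrl (19 UMIs) against 26.1 CPM in cKO (15 UMIs), a log2 ratio of 0.81 (-0.27 to 1.86) that turned to -0.74 in nuclei with at most 1% mitochondrial UMIs, and *Ankrd1* at 11.0 and 13.9 CPM, a log2 ratio of 0.34 (-1.12 to 1.69). *Jun*, *Ddit3* and *Atf4* had log2 ratios of -0.37, -0.62 and -0.24 with intervals that span 0. RNA of fibres was present in these nuclei: *Myh4*, a fibre gene, had 1342 CPM in Ctrl against 1357 CPM in cKO. Low levels of fibre-expressed members outside the fibres are therefore not read as expression there.

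Fibro-adipogenic progenitors (FAPs) are interstitial connective tissue cells of muscle, and the FAP-like cluster held 61.7% of *Egr1* UMIs in Ctrl and 42.9% in cKO. In it (340 Ctrl and 156 cKO nuclei), *Egr1* was at 98.8 and 55.5 CPM, a log2 ratio of -0.83 (-1.75 to -0.01), *Fos* at 70.4 and 25.9 CPM, a log2 ratio of -1.44 (-2.83 to -0.29), and *Jun* at 80.8 and 37.0 CPM, a log2 ratio of -1.13 (-2.27 to -0.14). FAP-like nuclei made up 56.1% of the nuclei outside the fibres in Ctrl and 44.4% in cKO, and endothelial-like nuclei 34.5% and 46.4%. The lower *Fos* was thus also present within 1 cluster. In the endothelial-like cluster, whose leading genes include the mural cell gene *Rgs5*, *Atf3* had 5 UMIs in Ctrl and 11 in cKO, a log2 ratio of 1.98 (0.34 to 3.86), and *Fos* was at 23.4 and 23.0 CPM.

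Other genes of the same pathways were described in all myonuclei, and each list is read beside all genes there, of which 4.12% were higher and 4.86% lower by 2-fold or more, with a median log2 ratio of -0.08. The heat shock and tissue dissociation list stood out by its counts: of 13 genes with enough UMIs, 8 were higher by 2-fold or more, 0 were lower and all 13 lay above 0, with a median of 1.23. The small heat shock protein *Hspb1* had 7.70 CPM in Ctrl against 46.4 CPM in cKO, giving a log2 ratio of 2.59. The co-chaperone *Dnajb1* had 1.79 and *Dnaja1* 1.47. The inducible chaperone *Hspa1a* had 2 and 50 UMIs, a log2 ratio of 4.84 (2.92 to 7.93). *Bag3*, which acts in chaperone-assisted autophagy at the Z-disc, was at 76.4 and 196 CPM, a log2 ratio of 1.36, and *Hspa4* had 0.54. Among the 10 of these genes with 100 UMIs or more, 5 were higher.

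The heat shock list was also higher outside the fibres, where the HSA promoter does not drive Cre. RNA of fibres was present in those nuclei too, with *Myh4* in 32.8% of Ctrl and 33.0% of cKO nuclei after thinning. The level of the list there is therefore not read as expression by those cells alone. There, all 9 genes with enough UMIs lay above 0, 2 of them by 2-fold or more (*Hsp90ab1* 1.19 and *Hsph1* 1.28, named after their values were seen), with a median of 0.92. Its summed level was 320 CPM in Ctrl and 663 CPM in cKO myonuclei, and 355 and 604 CPM outside the fibres. In cKO it was at 1125 CPM in myonuclei with *Atf3* and 611 CPM in those without, a ratio of 1.84 (1.70 to 1.99), and in Ctrl at 603 and 314 CPM. In myonuclei the list was higher in cKO along with *Atf3*, *Fos* and *Ankrd1*, while outside the fibres it was higher and *Fos* was lower. The part of the heat shock list in these differences was not tested, nor was the part of fibre RNA in its level outside the fibres. Mitochondrial genes made up 0.278% of myonuclear UMIs in Ctrl and 0.349% in cKO, and 1.81% and 3.03% outside the fibres. *Malat1*, an abundant nuclear RNA, made up 26.7% and 31.4% of UMIs in myonuclei and 19.1% and 22.7% outside the fibres. With *Malat1* and mitochondrial genes left out of the total, *Atf3* in myonuclei had a log2 ratio of 2.22.

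Other immediate early genes were mixed. Of 17 with enough UMIs, 3 were higher by 2-fold or more and 2 were lower, with a median of 0.10. The antiproliferative gene *Btg2* was at 6.27 and 22.5 CPM, a log2 ratio of 1.84 (1.37 to 2.35), and the salt-inducible kinase gene *Sik1* at 9.53 and 31.5 CPM, a log2 ratio of 1.73 (1.33 to 2.13). *Fosb*, the third of the higher genes and named after its values were seen, had 6 and 15 UMIs. *Nfkbia*, the inhibitor of NF-κB, was at 11.0 and 4.05 CPM, a log2 ratio of -1.44 (-2.12 to -0.80), and *Gadd45b* had -1.38 (-2.41 to -0.45). *Gadd45g* and *Dusp1*, with the most UMIs, had -0.96 and 0.55. The summed level of the list was 226 CPM in Ctrl and 224 CPM in cKO. Outside the fibres, of 14 genes with at least 20 UMIs, 1 was higher by 2-fold or more (*Klf10*, 24 and 23 UMIs, log2 ratio 1.09) and 2 were lower (*Klf6* -1.24 and *Per1* -1.72), all named after their values were seen.

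Of 16 known targets of ATF4 with enough UMIs, 0 were higher by 2-fold or more and 2 were lower, 5 lay above 0 and 11 below, and the median was -0.32. Outside the fibres the median was -0.17 over 10 targets, none of which passed 2-fold. *Chac1*, a glutathione-degrading enzyme gene, was at 9.14 and 1.35 CPM, a log2 ratio of -2.76 (-3.95 to -1.75), and *Ddit4*, named after its values were seen, had 41 and 6 UMIs and a log2 ratio of -2.57. Among the 10 targets with 100 UMIs or more, 0 were lower by 2-fold or more. *Vldlr* and *Slc7a11*, with the most UMIs, had -0.55 and -0.20. In the unfolded protein response list, 2 of 16 were higher by 2-fold or more and 0 were lower, with a median of 0.15. These were the ER chaperone gene *Hspa5*, with 75 and 133 UMIs and a log2 ratio of 1.03 (0.61 to 1.46), and *Creld2*, named after its values were seen, with 6 and 15 UMIs. The stress sensors *Atf6* and *Ern1* had -0.14 and -0.02.

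The mechanical load and YAP target list, in which *Ankrd1* would fall, had 3 genes higher and 3 lower by 2-fold or more of 17, with a median of 0.22. *Cyr61*, a matrix-associated YAP target, was at 13.6 and 35.6 CPM, a log2 ratio of 1.39 (1.05 to 1.74), and *Csrp3*, the muscle LIM protein gene of the Z-disc, at 26.4 and 62.4 CPM, a log2 ratio of 1.24 (1.00 to 1.49). *Tead4* was at 112 and 37.4 CPM, a log2 ratio of -1.58 (-1.79 to -1.38). *Mustn1* (higher), *Ctgf* and *Axl* (both lower), named after their values were seen, had log2 ratios of 1.11, -1.64 and -1.73 from few UMIs. *Ankrd2* and *Ankrd23*, the relatives of *Ankrd1* and also named after their values were seen, had -0.38 each, beside 1.60 for *Ankrd1*. *Tead1* and *Xirp2*, with the most UMIs, had -0.11 and 0.25. In the list of other ATF and CREB family genes, 0 of 11 passed 2-fold in either direction (*Atf6* -0.14, *Atf2* 0.10), and among partners and antagonists of MYC 0 of 8 did (*Mlxip* -0.24, *Mga* -0.13).

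**Figure D5:**
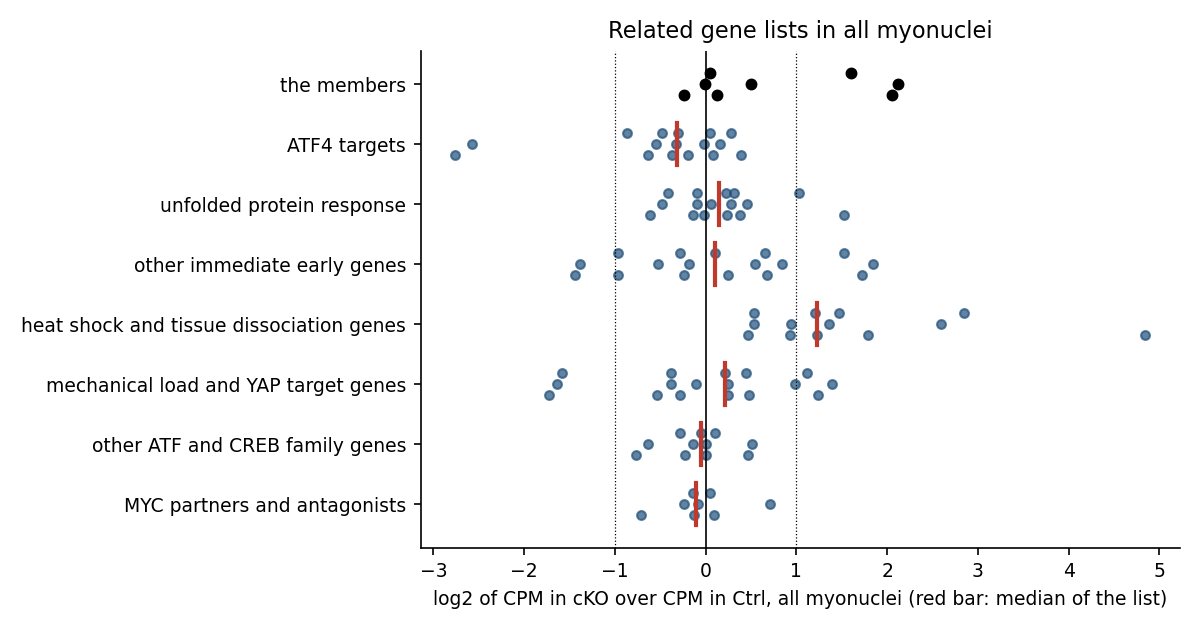
Log2 ratio of CPM in cKO over CPM in Ctrl in all myonuclei (x axis) for the 8 members with enough UMIs (black) and for the genes of 7 related lists (blue, 1 point per gene, spread vertically for legibility), with the list median as a red bar and dotted lines at 2-fold. All 13 heat shock genes lie above 0 with a median of 1.23, while ATF4 targets have a median of -0.32.

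The pattern of *Atf3* over 13 groups of nuclei (myosin class or outside the fibres, by library, with at least 50 nuclei) was compared with that of 6305 genes by Pearson's r of log2(CPM + 1). The 5 most alike were *Pnrc1* (0.93), 5730419F03Rik (0.91), *Nav2* (0.90), *Siah2* (0.90) and *Ube2h* (0.89). Among the members, r was 0.62 for *Ankrd1*, 0.42 for *Fos*, 0.28 for *Ddit3*, 0.10 for *Jun*, -0.02 for *Myc*, -0.09 for *Egr1*, -0.40 for *Atf4* and -0.45 for *Junb*. In all myonuclei, *Pnrc1*, a nuclear receptor coactivator gene, had 12.4 CPM in Ctrl against 44.7 CPM in cKO. These groups share libraries and depth, and the correlations are a description over groups, not over independent samples.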

How the data were processed

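The authors isolated nuclei from GP muscle (3 muscles pooled per library, per the protocol in the labels), made matrices with Cell Ranger 3.1.0 (submitters' processing notes) on mm10 with default parameters and deposited raw UMI counts per gene and barcode. Whether intronic reads were counted is not given in the sources used here. The labels and the study's methods name different kit releases. Nuclei with at least 100 genes, at least 500 UMIs and at most 10% mitochondrial UMIs were kept. Scrublet (scanpy 1.11.5) called 0 doublets, so the 8% of nuclei with the highest scores were removed per library (307 Ctrl, 313 cKO). Nuclei were clustered in Seurat 5.3.0 (sctransform 0.4.2, R 4.3.3) on 2994 features without the 9 genes, with mitochondrial percentage regressed out, 25 components and resolution 0.1, and clusters were named from markers. UMIs were summed per library and class. CPM have exact Poisson intervals, shares exact Clopper-Pearson intervals and ratios exact conditional intervals (scipy 1.17.1). A gene at 0 was set to a floor of 3 UMIs over the class. Backgrounds used genes with at least 20 UMIs. Lists were ATF4 targets, unfolded protein response, other immediate early, heat shock and dissociation, mechanical load and YAP target, other ATF and CREB, and MYC partner genes. The calls and intervals were tested on simulated counts, drawn as Poisson totals per gene. These hold no crowding of UMIs into single nuclei, so the test could not check the intervals against it. Positions are from GENCODE M21, promoters from RefSeq. From each list, text names the genes past 2-fold with at least 50 UMIs, at most 4 by size, and the 2 with most UMIs. The members and lists were chosen with earlier results of these data known. Alternatives were other totals, filters, thinning, doublets, clusterings and myosin calls.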

Additional observations from a re-analysis of the deposited data

Results flagged for a closer look

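*Fos* was higher in cKO myonuclei (log2 ratio 2.05) and lower in cKO nuclei outside the fibres (-1.08), with both counting intervals apart from 0, a difference of 3.13 on the log2 scale. Between single clusters, the difference was 3.15 from the Myh4-high cluster 0 to the FAP-like cluster and 4.24 from cluster 1 to the FAP-like cluster. *Ddit3* was higher in cKO in cluster 1 (0.99) and lower in the type I-like cluster (-1.07), a difference of 2.06. The second value was -0.63 with the highest doublet scores kept and -0.83 with the 9 genes kept among the clustering features. With 1 library per group, these differences between classes of nuclei were not tested.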

How the results depend on the processing

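In all myonuclei, the log2 ratio of *Atf3* (2.12) was 1.70 as a mean of the CPM of single nuclei and 1.68 with the myosin class shares of Ctrl. It was 3.26 without the 10 nuclei richest in *Atf3*, which held 66.2% of the *Atf3* UMIs in Ctrl and 26.2% in cKO. Over the alternatives tried it ranged from 1.68 to 3.26, that of *Fos* from 1.73 to 2.25, that of *Ankrd1* from 1.30 to 1.80 and that of *Ddit3* from 0.37 to 0.76. *Jun* (0.04) was at -0.15 as a mean of single nuclei and at -0.15 without the type I-like cluster. *Ankrd1* turned to -2.16 in *Myh1* nuclei when myosin was called after thinning and to -0.13 in *Myh4* nuclei when 80% of myosin UMIs were asked for, and in the type I-like cluster *Atf3* turned to -0.43 and *Ankrd1* to 0.06 when the members were kept among the clustering features. The causes were not tested. Leaving out the type I-like cluster, weighting by Ctrl class shares, resolution 0.3 and the settings for the type I-like cluster were chosen after seeing the data. The count of members higher (3) and lower (0) by 2-fold was the same with at least 100 UMIs, with no filter and at 1.5-fold. The background share of all genes higher was then 2.99%, 7.04% and 9.41%, and lower 2.55%, 7.40% and 12.8%. At 1 library per group, depth limits *Junb*, *Egr1* and *Myc* in myonuclei and most members outside the fibres, and library and genotype cannot be told apart. No paired analysis was possible because each group had 1 library and no result came from a test.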
